A study of Mus musculus with 24 samples.

Results

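The genes described here are 8 members of the pathway by which the small intestine packages absorbed fat: Apoa1, Apoa4, Apob, Apoc2, Apoc3, Mttp, Sar1b and Apobec1. They were chosen by gene symbol, and each symbol matched 1 row of the deposited tables, so the members were 8 of the 56691 genes in the count table and 8 of the 34471 in the table of FPKM, which are fragments scaled by exon length and by the mapped fragments of the library. RNA from the whole distal jejunum of 24 mice was sequenced, 1 library per mouse and 3 mice in each of 8 groups set by sex, genotype and treatment. The 4 male and female wild type and Ptk6-/- control groups drank regular water. The other 4 groups, of the same sexes and genotypes, had 100 mM succinate in their drinking water for 7 days. Mice were 9 to 11 weeks old, on the C57BL/6 background, and age-matched animals came from different litters. Ptk6, which encodes an intracellular tyrosine kinase of epithelial linings, is disrupted in the germline of Ptk6-/- mice, so that every cell of the body lacks it, not the epithelium alone. Succinate is a microbial metabolite that tuft cells sense. The comparisons ask whether the chylomicron genes depended on Ptk6, on succinate, on sex, or on their combinations.

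Chylomicrons are the large lipoproteins in which enterocytes, the absorptive cells of the intestinal epithelium, export dietary triglyceride into the lymph. Each particle is built in the endoplasmic reticulum around 1 molecule of apolipoprotein B, to which microsomal triglyceride transfer protein, encoded by Mttp, adds lipid, and SAR1B, a small GTPase of the COPII coat, helps carry the particle onward to the Golgi. The intestine makes a short apolipoprotein B, because the deaminase APOBEC1 turns a glutamine codon of the Apob messenger RNA into a stop codon. Apolipoproteins A-I and A-IV coat the particle, apolipoprotein C-II activates lipoprotein lipase in the capillaries, and apolipoprotein C-III slows that lipolysis.

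The site that APOBEC1 edits joins 2 of the members and is shown for that reason. In the GENCODE annotation of GRCm38 it lies in transcript Apob-202 at chr12:8008044-8008073 on the plus strand, in exon 26 of 29. The capitals mark the edited C, which is base 8008054 of the chromosome and base 6535 of the coding sequence, and the TGATCAG with which the downstream mooring sequence begins.
Apob editing site: atacgcgataCaattTGATCAGtatattaa
The edited C opens codon 2179, which is 48.3% of the way through the coding sequence. The deposited tables hold gene totals, so the edited share of the messenger RNA was not measured.

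Of the 8 members, 7 (all but Apoc3) matched a RefSeq promoter entry for GRCm38.p6. Both strands of the 250 bases before the start were searched for TATAAA, the TATA box, and for CAAAGNNCA, the core letters of sites for HNF4-type nuclear receptors. The TATA box letters were in 2 of the 7 member promoters and in 12.4% of 32851 promoters. The HNF4-type core was in 3 of the 7 and in 5.49% of all. The 3 promoters with that core are printed with the matches to both motifs in capitals. That of Apoa4 spans chr9:46240594-46240843 on the plus strand, that of Apob chr12:7977427-7977676 on the plus strand and that of Apobec1 chr6:122602445-122602694 on the minus strand.
Apoa4 promoter: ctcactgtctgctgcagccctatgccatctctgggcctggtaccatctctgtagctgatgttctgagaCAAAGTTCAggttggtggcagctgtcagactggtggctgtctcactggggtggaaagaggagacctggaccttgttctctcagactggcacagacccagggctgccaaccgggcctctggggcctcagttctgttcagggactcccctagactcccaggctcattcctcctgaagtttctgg
Apob promoter: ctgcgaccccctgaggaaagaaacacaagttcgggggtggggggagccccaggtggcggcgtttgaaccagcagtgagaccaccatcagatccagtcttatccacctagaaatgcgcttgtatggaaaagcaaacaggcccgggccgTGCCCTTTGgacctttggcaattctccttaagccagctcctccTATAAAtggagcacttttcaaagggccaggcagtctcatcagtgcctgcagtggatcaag
Apobec1 promoter: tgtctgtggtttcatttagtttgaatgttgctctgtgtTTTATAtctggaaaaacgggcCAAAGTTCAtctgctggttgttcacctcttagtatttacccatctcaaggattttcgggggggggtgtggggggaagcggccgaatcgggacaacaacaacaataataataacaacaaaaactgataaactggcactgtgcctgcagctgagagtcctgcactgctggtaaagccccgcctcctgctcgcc
The core lay 182 to 174 bases before the start in Apoa4 and 191 to 183 bases before it in Apobec1, with the same 9 letters, CAAAGTTCA, in both. In Apob it was read on the reverse strand, 103 to 95 bases before the start, and a forward TATA box followed 60 to 55 bases before the start. The TATA box letters of Apobec1 were on the reverse strand, 212 to 207 bases before the start. These matches are descriptions of sequence, and no binding was measured.

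Total counts were 8080321 to 52824743 per library, and the members together took 0.891% to 2.94% of them. Ptk6 had 284 to 2405 counts in each wild type library and 7 to 61 in each Ptk6-/- library. In replicate 1 of the male wild type controls 51.2% of counts came from Rn18s-rs5, a gene for 18S ribosomal RNA, and in replicate 1 of the succinate-treated male Ptk6-/- mice, the shallowest library, 29.7% did, against at most 4.49% in the other 22 (95% Wilson half-widths up to 0.0315 percentage points, counting error only). Replicate 2 of the succinate-treated female wild type mice had a summed FPKM of heart muscle markers of 3254, against at most 36.3 elsewhere. Enterocyte markers were all detected, with median FPKM of 1482 for Anpep and 556 for Vil1, and the distal markers Fabp6 and Clec2h had medians of 1381 and 417. Liver makes many of the same apolipoproteins. Of 8 hepatocyte markers, which summed to 0.662 to 10.3 FPKM, Alb was listed at 0 in 21 of 24 libraries, Fga in 19, Fgb in 18 and Ahsg in 17, while Cyp2e1, Tat, Ttr and Serpina1a had medians of 1.34, 0.780, 0.742 and 0.509 FPKM. In whole tissue, fewer cells of a type and less RNA per cell cannot be told apart.

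The 2 surface apolipoproteins of the A class were by far the most abundant members. Values between genes are given in FPKM, which corrects for length but not for the share of 18S RNA. The 18S-rich male wild type control read lowest of its group for all 8 members, and the 18S-rich succinate-treated male Ptk6-/- library did so for 6, but it read highest of its group for Apoa1 (6843 FPKM) and Apoc3 (88.7 FPKM). Apoa1 (ENSMUSG00000032083, chr9:46139878-46141764, plus strand of GRCm39, the build of all deposited gene positions) had a median of 6288 FPKM over the 24 libraries, with a range of 3071 to 12795, and ranked 1 by median among all 34471 genes. Apoa4 (ENSMUSG00000032080, chr9:46151994-46154757, plus strand) had a median of 1172 FPKM, from 501 to 3635, and ranked 48. Both lie in 1 cluster with Apoc3 (ENSMUSG00000032081, chr9:46144231-46146934, minus strand), which sits between them on the opposite strand. Apoc3 had a median of only 72.5 FPKM, from 26.3 to 204.

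The other members lay between these levels and that of the editing enzyme. Mttp (ENSMUSG00000028158, chr3:137795615-137849149, minus strand) had a median of 124.69 FPKM, from 18.9 to 200.1. Apoc2 (ENSMUSG00000002992, chr7:19405504-19411866, minus strand) had a median of 82.7 FPKM, from 39.1 to 404, and its partly overlapping same-strand neighbour Apoc2l took at most 4.28% of the counts of both. Apob (ENSMUSG00000020609, chr12:8027648-8066835, plus strand) had a median of 67.2 FPKM, from 11.2 to 113. Those 3 and Apoc3 did not keep a fixed order: Mttp exceeded Apoc2 in 13 of 24 libraries, Apoc2 exceeded Apoc3 in 16 and Apoc3 exceeded Apob in 13. Sar1b (ENSMUSG00000020386, chr11:51654514-51682752, plus strand) had a median of 49.6 FPKM, from 6.22 to 69.3, and lay under Apob in 17 libraries. Apobec1 (ENSMUSG00000040613, chr6:122554751-122579403, minus strand) was lowest in every library, with a median of 9.003 FPKM and a range of 0.521 to 17.4. The order Apoa1 over Apoa4 over Mttp, and Sar1b over Apobec1, held in 24 of 24 libraries. Depth was ample for every member except Apobec1 and Sar1b in the shallowest library, where they had 23 and 123 counts.

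**Figure D1:**
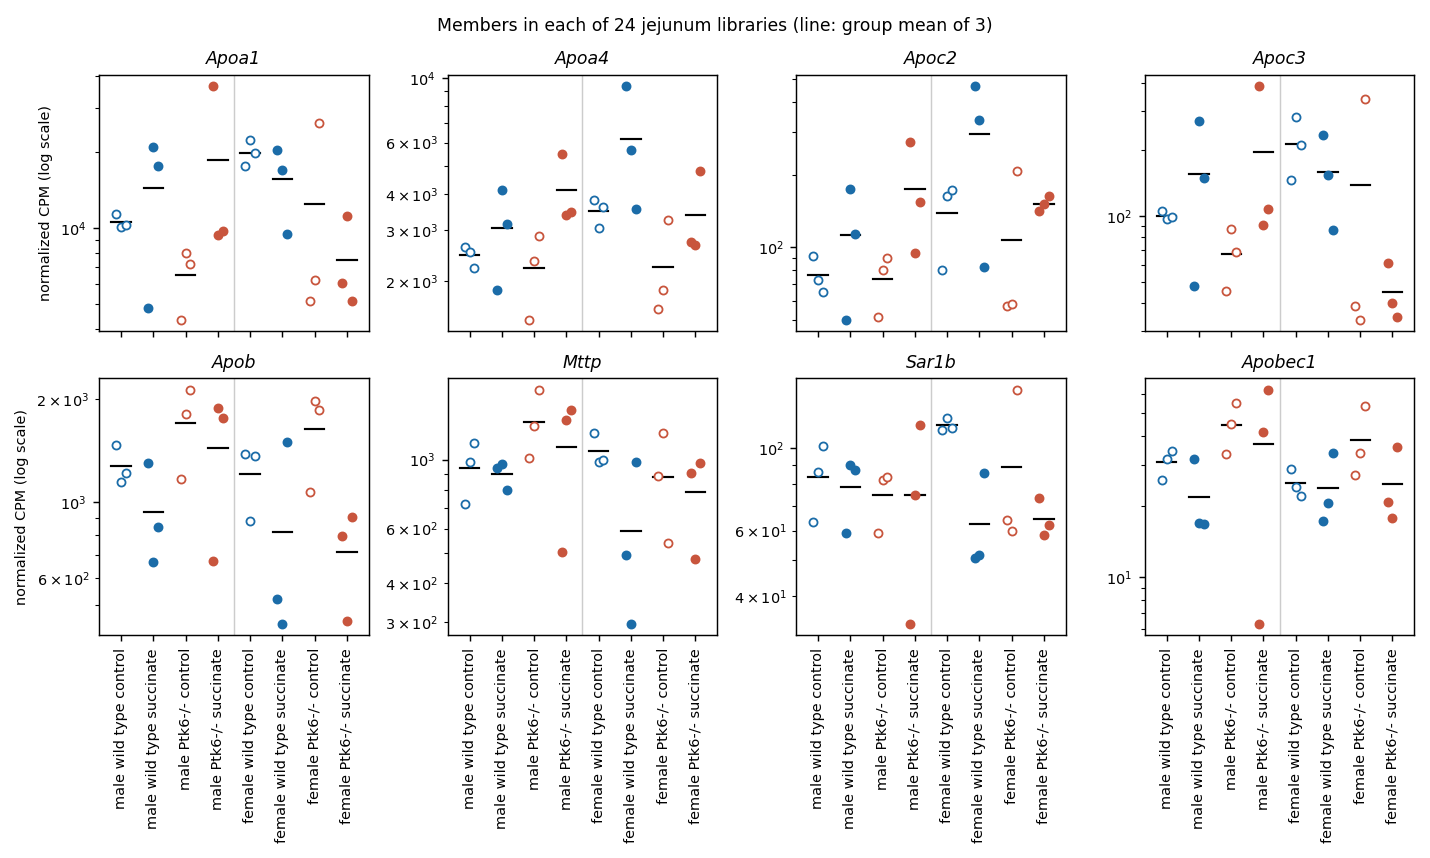
Normalized CPM (counts scaled by library size, log axis) of the 8 members in each of the 24 libraries, by group, with open points for control and filled points for succinate, blue for wild type and red for Ptk6-/-, and a line at each group mean of 3. Single libraries stand far from their group, such as the 36508 of Apoa1 in 1 succinate-treated male Ptk6-/- mouse, whose group mates were at 9417 and 9724.

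Within a gene, libraries were compared by CPM after TMM scaling, called normalized CPM, in which counts are divided by the effective size of the library. Fold changes and their standard errors (SE) are on the log2 scale from edgeR's quasi-likelihood test, and adjusted p is Benjamini-Hochberg over all genes tested. A gene was called at an adjusted p under 0.05 and a fold change of at least 2. All 8 members passed the filter on low counts in all 15 comparisons, and 0 of the 8 were called in any of them.

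In male control mice no member was called between the genotypes. Apoa1 was at 11372, 10070 and 10306 normalized CPM in the wild type males and at 4335, 7948 and 7219 in the Ptk6-/- males. The 3 Ptk6-/- libraries were all below the 3 wild type libraries, and the log2 fold change was -0.73 (SE 0.31, adjusted p = 0.185). Apoc3 was at 105, 96.4 and 98.4 in wild type and at 45.6, 87.0 and 68.2 in Ptk6-/-. These groups did not overlap either, with a log2 fold change of -0.60 (SE 0.21, adjusted p = 0.131). Groups that did not overlap were common in this comparison: 32.7% of all genes tested, against 2 of the 8 members.

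Apobec1, Mttp and Apob had positive log2 fold changes in the male controls, and none passed the test. Apobec1 was at 25.9, 31.8 and 34.4 normalized CPM in wild type and at 33.3, 44.7 and 54.9 in Ptk6-/-. The lowest Ptk6-/- library lay just under the highest wild type library, and the log2 fold change was 0.51 (SE 0.18, adjusted p = 0.128). Mttp differed by 0.48 (SE 0.23, adjusted p = 0.246) and Apob by 0.39 (SE 0.26, adjusted p = 0.393). Apoa4, Apoc2 and Sar1b had log2 fold changes between -0.17 and -0.08. edgeR called 142 of 19218 genes (0.739%) and 0 of the 8 members, of which 3 (Apoa1, Apoc3 and Apobec1) had an unadjusted p under 0.05, as had 4837 of all genes. DESeq2 and voom called 277 and 577 genes, and no member. Over all alternatives the lowest adjusted p was 0.00576 for Apoa1, 0.0165 for Apobec1, 0.0288 for Apob, 0.0345 for Apoc3 and 0.0420 for Mttp, each at a change under 2-fold, and the highest was 0.930 to 0.931. In the same comparison 9 of 10 enterocyte markers had log2 fold changes above 0 (median 0.28, 0 called). They summed to 3336 to 4139 FPKM in Ptk6-/-, against 3266 and 3438 in wild type and 1219 in the 18S-rich wild type library. All 8 Paneth cell markers were below 0 (median -0.91), of which Defa30 was called. Muc2 of goblet cells and Egfr of the villus tip were called higher. The goblet cell markers together did not sum higher, at 3389 to 4145 FPKM in Ptk6-/-. In wild type they summed to 4704 and 4906 FPKM, and to 2144 in the 18S-rich library. Their part in the result was not tested. The median log2 fold change of the members was -0.12, beside 0.017 for all genes tested.

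In female controls, 1 Ptk6-/- library decided the size of the difference. Apoa1 was at 17634, 22292 and 19793 normalized CPM in wild type and at 5145, 6224 and 26065 in Ptk6-/-. Replicates 1 and 2 of Ptk6-/- lay under every wild type library and replicate 3 above them all, so the log2 fold change was -0.66 (SE 0.65, adjusted p = 0.733). Apoc3 had the same shape, with 145, 280 and 211 in wild type against 39.1, 33.7 and 341 in Ptk6-/-, and a log2 fold change of -0.61 (SE 0.84, adjusted p = 0.810). Apoc2 was at 80.5, 163 and 173 in wild type and at 56.7, 57.8 and 207 in Ptk6-/- (log2 fold change -0.35, SE 0.55, adjusted p = 0.837). In each of these 3 genes the same library, replicate 3, was the highest of the 6. That library also had 8.54% mitochondrial counts, against 4.44% and 5.66% in the other two Ptk6-/- libraries, and goblet cell markers summing to 8614 FPKM, against 3251 and 3458. The wild type controls had 2.19% to 3.21% mitochondrial counts and goblet sums of 5782 to 7505 FPKM. Distal markers summed to 1233, 1616 and 2836 FPKM in Ptk6-/- replicates 1 to 3 and to 2255 to 4120 in wild type. The part of these differences in the result was not tested. The genotypes overlapped for all 8 members, against 18.9% of all genes whose groups did not.

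Without that library, 3 of the 8 members were called lower in the female Ptk6-/- controls, when edgeR called 9.65% of all genes (1808 of 18731). Apoa1 then had a log2 fold change of -1.76 (SE 0.33, adjusted p = 0.0275), Apoc3 of -2.49 (SE 0.31, adjusted p = 0.0275) and Apoc2 of -1.22 (SE 0.33, adjusted p = 0.0477). voom with sample quality weights, which keeps all 6 libraries, called the same 3 genes lower, at adjusted p = 0.0155, 0.0148 and 0.0364, when it called 10.4% of all genes. Over all alternatives, adjusted p ran from 0.0155 to 0.960 for Apoa1. With all 6 libraries edgeR called 3 of 19035 genes (0.0158%), 0 of the 8 members, and no member had an unadjusted p under 0.05, against 2115 of all genes. DESeq2 called 175 genes and no member. Apobec1 was at 27.2, 33.6 and 53.5 in Ptk6-/- against 28.9, 24.1 and 22.1, where 27.2 lay under the 28.9 of wild type, with a log2 fold change of 0.63 (SE 0.28, adjusted p = 0.455). The median over the members was -0.35, beside 0.043 over all genes.

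Under succinate, the log2 fold change between genotypes farthest from 0 was that of Apoc3 in females, short of a call by edgeR. It was at 234, 153 and 86.3 normalized CPM in succinate-treated female wild type mice and at 61.0, 40.1 and 34.5 in Ptk6-/- females. All 3 Ptk6-/- libraries were below all 3 wild type libraries, with a log2 fold change of -1.81 (SE 0.44) but an adjusted p of 0.931. Apoc3 was the 1 member of 8 whose groups did not overlap here, as they did not for 10.5% of all genes. DESeq2 called it (log2 fold change -1.80, adjusted p = 0.0490) when it called 42 of 29138 genes (0.144%), and adjusted p over all alternatives ran from 0.0490 to 1.000. Apoa1 and Apoc2 had log2 fold changes of -1.06 (SE 0.56) and -0.96 (SE 0.57). That of Apoc2 was -0.43 without replicate 1 of the treated wild type mice and -1.41 without replicate 3. edgeR called 0 of 19180 genes (0%), with 867 at an unadjusted p under 0.05, and voom called 0. The median over the members was -0.53, beside -0.034 over all genes.

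In succinate-treated males the groups did not separate for any member (0 of 8, against 8.83% of all genes), with log2 fold changes from -0.06 for Sar1b to 0.77 for Apobec1, and every adjusted p was 1.000. Apobec1 itself was at 31.9, 16.9 and 16.7 normalized CPM in wild type and at 6.31, 41.5 and 62.4 in Ptk6-/-. The value of 6.31 came from the shallow library rich in 18S RNA. Without that library the log2 fold change was 1.21 for Apobec1, 0.24 for Sar1b, -0.61 for Apoa1 and -0.66 for Apoc3, and without replicate 3 of the Ptk6-/- mice it was 0.18 for Apobec1. edgeR called 0 of 18904 genes (0%), with 514 at an unadjusted p under 0.05, and DESeq2 called 72 with no member among them. voom, which weights libraries by quality, called 9.52% of all genes (1799) and 2 of the 8 members as higher in Ptk6-/-. These were Apob (log2 fold change 1.09, adjusted p = 0.0329) and Apobec1 (1.48, adjusted p = 0.0247), whose adjusted p over all alternatives ran up to 1.000.

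Averaged over sex and treatment, Ptk6-/- mice had lower Apoa1 and Apoc3 and higher Apobec1 than wild type mice, short of a call. The median of Apoa1 was 17275 normalized CPM in the 12 wild type libraries (4837 to 22292) and 7584 in the 12 Ptk6-/- libraries (4335 to 36508). These ranges overlapped throughout, and the average log2 fold change was -0.52 (SE 0.32, adjusted p = 0.460). The median of Apoc3 was 147 in wild type (47.9 to 280) and 64.6 in Ptk6-/- (33.7 to 389), with an average of -0.67 (SE 0.36, adjusted p = 0.408). Apobec1 had medians of 25.0 and 34.7, with an average of 0.49 (SE 0.24, adjusted p = 0.383). Its log2 fold change was above 0 in each of the 4 pairs of groups, while those of Apoa1 and Apoc3 were below 0 in 3 pairs and above 0 in succinate-treated males (0.43 and 0.41), where they turned to -0.61 and -0.66 without the 18S-rich library. In succinate-treated females that of Apobec1 was 0.06, and it fell below 0 in 3 of the 6 fits that left out 1 library. Without the 3 libraries that stood apart by 18S RNA or heart transcripts these averages were -0.74, -0.92 and 0.56, still not called. edgeR called 4 of 21694 genes (0.0184%) and 0 of the 8 members. None of the members had an unadjusted p under 0.05, against 2897 of all genes. voom called 7.09% of all genes and 2 of the 8 members, Apoa1 (-1.08, adjusted p = 0.000298) and Apoc3 (-1.27, adjusted p = 0.00025). Over all alternatives the adjusted p ran up to 0.739 for Apoa1.

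In wild type males the treated and control mice did not separate for any member (0 of 8, against 9.18% of all genes). Apoc3 was at 105, 96.4 and 98.4 normalized CPM in controls and at 47.9, 269 and 149 with succinate. Replicate 1 of the treated mice was below every control and the other two above them, for a log2 fold change of 0.62 (SE 0.52, adjusted p = 0.947). Without that replicate Apoc3 was called higher (1.02, SE 0.23, adjusted p = 0.0298), when 5.8% of all genes were called, and adjusted p over all alternatives ran up to 1.000. With all libraries 0 of the 8 members and 0 of 19183 genes (0%) were called, and no member had an unadjusted p under 0.05, against 781 of all genes. DESeq2 called 50 genes and voom 1498, with no member among them.

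In male Ptk6-/- mice, 4 of the 8 members were higher with succinate in every library, all of them exchangeable apolipoproteins, and none was called. Apoa1 was at 4335, 7948 and 7219 normalized CPM in controls and at 36508, 9417 and 9724 with succinate. Apoc3 went from 45.6, 87.0 and 68.2 to 389, 91.1 and 107. Apoc2 was at 51.0, 80.5 and 90.5 in controls and at 275, 94.3 and 154 with succinate. In all 3 genes the highest library was replicate 1 of the treated mice, the library with 29.7% 18S RNA. The other two treated libraries were above the controls as well. For Apoa4 the controls were at 1474, 2350 and 2866 and the treated mice at 5484, 3367 and 3472. The log2 fold changes were 1.61 for Apoa1 (SE 0.74), 1.64 for Apoc3 (SE 0.62), 1.31 for Apoc2 (SE 0.45) and 0.94 for Apoa4 (SE 0.43), each with an adjusted p of 0.600. Without replicate 1 they were 0.54, 0.55, 0.72 and 0.60. Over the alternatives that kept every library, their lowest values were 0.56, 0.54, 0.44 and 0.20. The trend of a library's counts with gene length, described below as a slope, also parted these groups. It was 0.159 to 0.233 in controls and -0.185 to 0.0813 with succinate, and its part in the result was not tested. Of all genes tested, 23.8% had groups that did not overlap.

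No gene was called in this comparison (0 of 18966, 0%), and of the members Apoc2 and Apoc3 had an unadjusted p under 0.05, as had 1470 of all genes. DESeq2 and voom called 39 and 16 genes, and no member. Apob, Mttp, Sar1b and Apobec1 had log2 fold changes between -0.26 and 0.01. The median over the 8 members was 0.48, beside -0.097 over all genes.

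In wild type females Sar1b and Mttp were lower with succinate in every library, short of a call, and Apob was not. Sar1b was at 112, 120 and 113 normalized CPM in controls and at 50.7, 51.5 and 85.4 with succinate. Every treated library was below every control, with a log2 fold change of -0.86 (SE 0.28, adjusted p = 0.617). Mttp was at 1217, 983 and 996 in controls and at 493, 297 and 980 with succinate. Its groups were parted only by the gap between 980 and 983, and the log2 fold change was -0.83 (SE 0.47, adjusted p = 0.702). These 2 of the 8 members did not overlap between the groups, against 13.1% of all genes. Apob was at 1388, 880.0 and 1368 in controls and at 520, 442 and 1500 with succinate, so that 1 treated library was above every control (log2 fold change -0.54, SE 0.53, adjusted p = 0.828). In the same comparison all 10 enterocyte markers had log2 fold changes below 0 (median -0.70), with sums of 2770 to 3908 FPKM in controls and 907 to 3420 with succinate, and all 7 distal markers did (median -1.21), with sums of 2255 to 4120 and 392 to 2334. Tuft cell markers summed to 8.46 to 13.1 FPKM in controls and 26.2 to 82.5 with succinate. Immune markers summed to 191 to 275 FPKM in controls and 130 to 168 with succinate, and 18S RNA took 0.161% to 0.215% and 0.981% to 3.80% of counts. None of these markers was called, and the part of the markers or of 18S RNA in the result was not tested. Replicate 2 of the treated mice, lowest for Mttp and for the enterocyte and distal sums, is the library with heart transcripts. When replicate 3 is left out, that library and replicate 1 are the whole treated group. Without replicate 3 of the treated mice Sar1b was called lower (-1.12, SE 0.20, adjusted p = 0.0414), when 3.23% of all genes were called, and over all alternatives its adjusted p ran from 0.0414 to 1.000.

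Apoc2 and Apoa4 of the same wild type females stood higher in 2 of 3 treated mice. Apoc2 was at 80.5, 163 and 173 in controls and at 466, 339 and 82.5 with succinate, for a log2 fold change of 1.11 (SE 0.61, adjusted p = 0.701). Apoa4 was at 3810, 3047 and 3591 in controls and at 9371, 5643 and 3556 with succinate (0.85, SE 0.47, adjusted p = 0.699). In both genes replicate 3 of the treated mice lay within the range of the controls. Replicate 2 of the treated mice, which is among the high ones, is the library with heart transcripts. edgeR called 0 of 18872 genes (0%) and 0 of the 8 members, of which Sar1b had an unadjusted p under 0.05, as had 1466 of all genes. DESeq2 called 274 genes and voom 37, with no member among them. The median over the members was -0.37, beside 0.027 over all genes.

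In female Ptk6-/- mice no member was called with succinate. Apob was at 1072, 1979 and 1855 normalized CPM in controls and at 796, 450 and 908 with succinate. The highest treated library lay under the lowest control, and the log2 fold change was -1.21 (SE 0.42, adjusted p = 0.420). Apob was the 1 member of 8 without overlap, a smaller share than the 21.2% of all genes. Here 9 of 10 enterocyte markers had log2 fold changes below 0 (median -0.81), with sums of 2940 to 4060 FPKM in controls and 869 to 2514 with succinate, and all 7 distal markers did (median -1.36), with 0 called. Other markers had higher sums with succinate, at 45.6 to 98.3 FPKM against 9.58 to 10.2 for tuft cells (Avil called), 178 to 188 against 52.1 to 157 for stem and proliferating cells, and 1723 to 2416 against 846 to 1569 for smooth muscle. Paneth cell markers also summed higher, at 17921 to 52047 FPKM against 7589 to 16528. Hepatocyte markers summed lower, at 0.662 to 3.74 against 3.99 to 4.73. Their part in the result was not tested. Apoc3 was at 39.1, 33.7 and 341 in controls and at 61.0, 40.1 and 34.5 with succinate, for a log2 fold change of -1.64 (SE 0.86, adjusted p = 0.526). That value came from control replicate 3 alone. Without it the log2 fold change of Apoc3 was 0.28, that of Apoa1 was 0.37 in place of -0.77, that of Apoc2 was 1.38 in place of 0.48, and that of Apob was -1.11. edgeR called 17 of 19334 genes (0.0879%) and 0 of the 8 members, of which Apob had an unadjusted p under 0.05, as had 2060 of all genes. DESeq2 and voom called 424 and 200 genes, and no member. The median over the members was -0.56, beside -0.040 over all genes.

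Averaged over the 4 pairs of groups, no member was called with succinate, and Apoa4, Apoc2 and Apob had the lowest adjusted p. The median of Apoa4 was 2571 normalized CPM in the 12 control libraries (1474 to 3810) and 3514 in the 12 succinate libraries (1866 to 9371). The average log2 fold change was 0.66 (SE 0.20, adjusted p = 0.141). The median of Apoc2 was 80.5 in controls (51.0 to 207) and 152 with succinate (49.9 to 466), with an average of 0.84 (SE 0.29, adjusted p = 0.171). The median of Apob was 1378 in controls (880.0 to 2125) and 822 with succinate (442 to 1880), with an average of -0.61 (SE 0.23, adjusted p = 0.211). The log2 fold changes of Apoa4 and Apoc2 were above 0 and that of Apob below 0 in each of the 4 pairs of groups, but that of Apob in Ptk6-/- males (-0.23, SE 0.44) turned to 0.08 without the 18S-rich library. The 12 control and 12 succinate libraries overlapped in all 3 genes.

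These 3 of the 8 members had an unadjusted p under 0.05, as had 3495 of 21694 genes, but edgeR called none of the members and 158 of all genes (0.728%). DESeq2 called 384 genes and voom 798, and no member. Leaving out 1 library at a time gave adjusted p of 0.0359 to 0.254 for Apoa4, 0.0320 to 0.307 for Apoc2 and 0.0255 to 0.373 for Apob. Each lowest value came without replicate 3 of the succinate-treated female wild type mice, at changes under 2-fold. The change of Apoc2 passed 2-fold only without replicate 3 of the female Ptk6-/- controls (1.07, adjusted p = 0.0545). Over all alternatives adjusted p ran from 0.00353 to 0.478 for Apoa4, from 0.00353 to 0.487 for Apoc2 and from 0.00876 to 0.685 for Apob, with the lowest from voom with every library kept. Without the 3 libraries that stood apart the averages were 0.63, 0.75 and -0.41. Apoa1 and Apoc3, the other two surface apolipoproteins, had averages of 0.22 and 0.04. Summed marker levels also differed between treatments in the same libraries. Tuft cell markers summed to a median of 9.98 FPKM in controls (5.07 to 13.1) and 25.8 with succinate (1.84 to 98.3), and 7 of 8 were called higher. Enterocyte markers summed to a median of 3387 FPKM in controls (1219 to 4139) and 2377 with succinate (519 to 3875), all 10 with an average below 0 and 0 of 10 called. Markers of the distal small intestine summed to medians of 2406 and 1850, again with all 7 below 0 and 0 called. The part of these markers in the result was not tested.

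Between the sexes, only Apoc2 had an unadjusted p under 0.05 among the members. Its average log2 fold change, female against male, was 0.65 (SE 0.28, adjusted p = 0.287). edgeR called 78 of 21694 genes for sex (0.36%) and 0 of the 8 members, and 3316 genes had an unadjusted p under 0.05. DESeq2 called 324 genes and voom 301, and no member. The median over the members was 0.026, beside 0.028 over all genes.

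The interactions ask whether the effects above differed between groups, and 0 of the 8 members were called in any of the 4 tested. For genotype by succinate, edgeR called 0 of 20340 genes in males (0%) and 0 of 20531 in females (0%), with 772 and 1327 genes at an unadjusted p under 0.05. For sex by genotype in controls it called 0 of 20428 (0%), with 947 genes at that p. For all 3 factors together it called 0 of 21694 (0%), with 1299 at that p. None of the members had an unadjusted p under 0.05 in any of them, and DESeq2 and voom called no member, although they called 20 to 104 and 0 to 7 genes. The interaction of all 3 factors for Apoc3 was -2.09 on the log2 scale with an SE of 1.44 (adjusted p = 0.875). It was -0.25 without replicate 3 of the female Ptk6-/- controls and ran from -2.75 to -0.25 over all fits that left out 1 library, and it was 0.77 with voom. The genotype effect on Apoc3 was not shown to depend on sex or treatment.

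**Figure D2:**
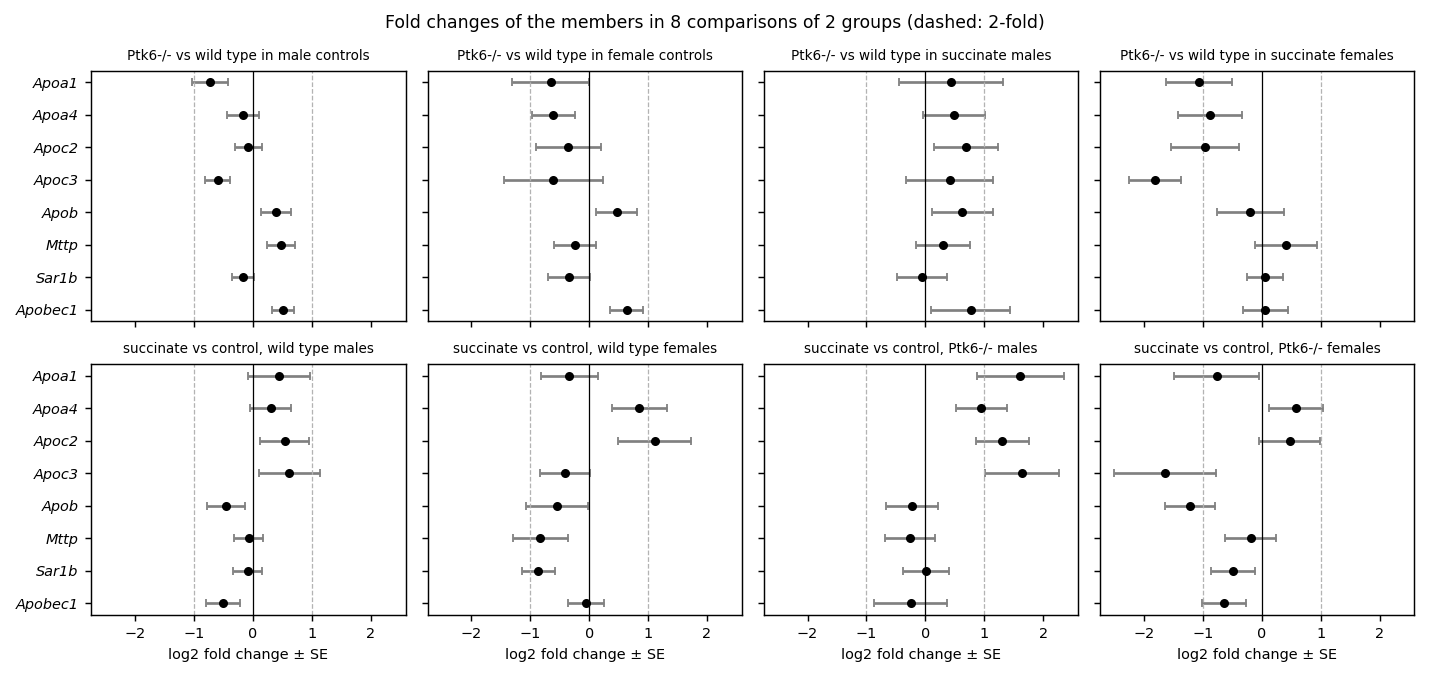
Log2 fold changes with their SE (bars) of the 8 members in the 8 comparisons of 2 groups, from edgeR's quasi-likelihood test, with dashed lines at 2-fold. The upper row compares Ptk6-/- with wild type and the lower row succinate with control, and none of the points was called.

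Most members followed a property of the whole library, the trend of its counts with gene length. For each library, the slope of its log2 CPM, relative to the mean of all 24, was taken on log2 gene length, so that a positive slope means relatively more counts on long genes. The slope ran from -0.205 to 0.233. Apoa1, with a longest coding transcript of 1035 bases in GENCODE, had a Pearson correlation of -0.87 with it over the 24 libraries. The other apolipoproteins of the A and C classes had negative values too, with -0.76 for Apoc3 (709 bases), -0.72 for Apoc2 (727 bases) and -0.59 for Apoa4 (1815 bases). The 3 longest transcripts had positive values, with 0.57 for Apob (13934 bases), 0.57 for Mttp (3963 bases) and 0.59 for Apobec1 (2265 bases). Sar1b (1201 bases), shorter than Apoa4, had only -0.12. These correlations are descriptions, since the slope is computed from the same libraries as the levels. Without the 3 libraries that stood apart (n = 21) they were -0.88 for Apoa1, 0.60 for Apob and -0.37 for Sar1b.

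**Figure D3:**
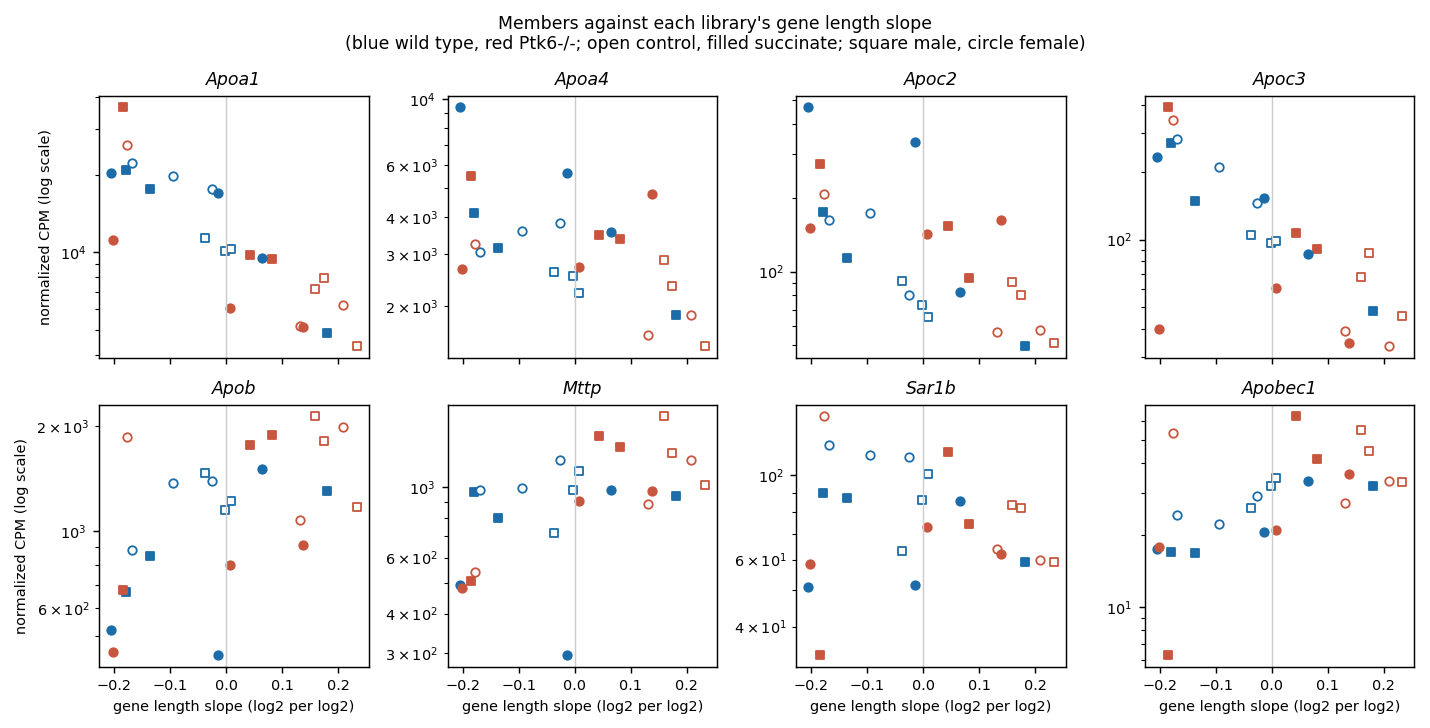
Normalized CPM (log axis) of each member against the gene length slope of its library (log2 CPM per log2 length), 1 point per library, with blue for wild type, red for Ptk6-/-, open for control, filled for succinate, squares for males and circles for females. The points of Apoa1 run downward, with a Pearson correlation of -0.87, and those of Apob, Mttp and Apobec1 upward.

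The slope differed among libraries of the same group as well as between groups. Its median was -0.0319 in wild type (-0.205 to 0.181) and 0.106 in Ptk6-/- libraries (-0.201 to 0.233), and 0.00280 in control and -0.00378 in succinate libraries. In the male controls it was -0.0376 to 0.00784 in wild type and 0.159 to 0.233 in Ptk6-/-, and in the other 3 pairs of groups the genotypes overlapped. Between treatments it was 0.159 to 0.233 in male Ptk6-/- controls and -0.185 to 0.0813 with succinate. In the other 3 pairs of treatment groups it overlapped. Replicate 3 of the female Ptk6-/- controls had -0.177, against 0.131 and 0.208 in its group mates and -0.169 to -0.0261 in the wild type female controls. Replicate 1 of the succinate-treated male Ptk6-/- mice had -0.185, against 0.0813 and 0.0433, and replicate 1 of the succinate-treated male wild type mice had 0.181, against -0.180 and -0.137. With an offset for this trend in the counts, the male control difference was -0.34 for Apoa1 and -0.16 for Apoc3, and 0.65 for Apobec1 (adjusted p = 0.088). The average succinate effect was then 0.53 for Apoa4, 0.67 for Apoc2 and -0.52 for Apob, with adjusted p of 0.129, 0.078 and 0.169.

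The levels of several members were correlated across libraries. Over the 24 libraries the Pearson correlation of log2 normalized CPM was 0.93 between Apoa1 and Apoc3, neighbours on chromosome 9, and 0.92 after the group means were taken out. It was 0.88 between Apoa4 and Apoc2, which lie on different chromosomes. It was 0.75 between Apob and Mttp and 0.75 between Apob and Apobec1. Between Apoa1, Apoa4, Apoc2 and Apoc3 on one side and Apob, Mttp and Apobec1 on the other it was below 0 for each pair, from -0.65 for Apoc2 and Mttp to -0.20 for Apob and Apoc3 (-0.08 without the 3 libraries that stood apart). Over all 24 libraries Sar1b went with neither side alone, with 0.26 for Apoc3, 0.17 for Apoa1, -0.15 for Apoa4 and -0.14 for Apoc2, and with 0.46 to 0.56 for Apob, Mttp and Apobec1. Without the 3 libraries that stood apart its highest values were 0.69 for Apoc3 and 0.62 for Apoa1. They were then 0.16 for Apoc2, 0.11 for Apoa4, 0.38 for Apob, 0.22 for Mttp and 0.30 for Apobec1. All of these share the library and its gene length slope.

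Among 17079 other genes compared, those whose pattern was most like a member's were named by the same correlation. All 24 libraries entered it, with the 3 that stood apart by 18S RNA or heart transcripts among them. These values too share the library and its gene length slope. Apoa1 was most like Tff3, the goblet cell trefoil factor, with 0.97, then Edf1 and Fibp, both 0.97. Apoc3 was most like Prxl2b, Gpaa1 and Ppp1r14d, at 0.95 each. Apoa4 had Apoc2 as its nearest, followed by Mdh2 at 0.86 and Ralb at 0.85. Apoc2 was most like Ddit3, a transcription factor of the stress response, with 0.92, then Rbp2, the retinol-binding protein of enterocytes, and Cox7a1, both 0.91. Apob was most like Prlr (0.97), Clca4b (0.96) and Lrrc66 (0.96). Mttp was most like Ipmk (0.96), Tdrd7 (0.96) and Sec23a (0.95), a subunit of the COPII coat. Sar1b was most like Slc25a5 (0.94), Bst1 (0.94) and Spg21 (0.93), and Apobec1 most like Nsdhl (0.92), Naa60 (0.91) and Cers2 (0.91).

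The balance of the activator and the inhibitor of lipoprotein lipase varied among female groups. The FPKM ratio of Apoc2 to Apoc3, which was chosen after its values were seen, ran from 0.691 to 5.88 over the 24 libraries. In wild type females it was 0.691, 0.724 and 1.02 in controls and 2.48, 2.75 and 1.19 with succinate. In Ptk6-/- females it was 1.81, 2.14 and 0.759 in controls and 2.90, 4.69 and 5.88 with succinate. Within each genotype every treated female was above every control female. Of the 28 ratios between members, 7 did not overlap between treatments in wild type females and 9 in Ptk6-/- females, and 2 did so in both with the same direction, this one and that of Apoa4 to Sar1b. Ratios without overlap were not particular to females: there were 11 in Ptk6-/- males and 0 in wild type males. The ratio of Apoc2 to Apoc3 in males was 1.09, 0.948 and 0.826 in wild type controls, 1.301, 0.807 and 0.954 in treated wild type, 1.39, 1.15 and 1.66 in Ptk6-/- controls and 0.882, 1.29 and 1.78 in treated Ptk6-/-. Treated and control males overlapped in both genotypes. The longest coding transcripts of Apoc2 and Apoc3 in GENCODE have 727 and 709 bases, which need not be the lengths behind the FPKM. The part of gene length in this ratio was not tested.

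**Figure D4:**
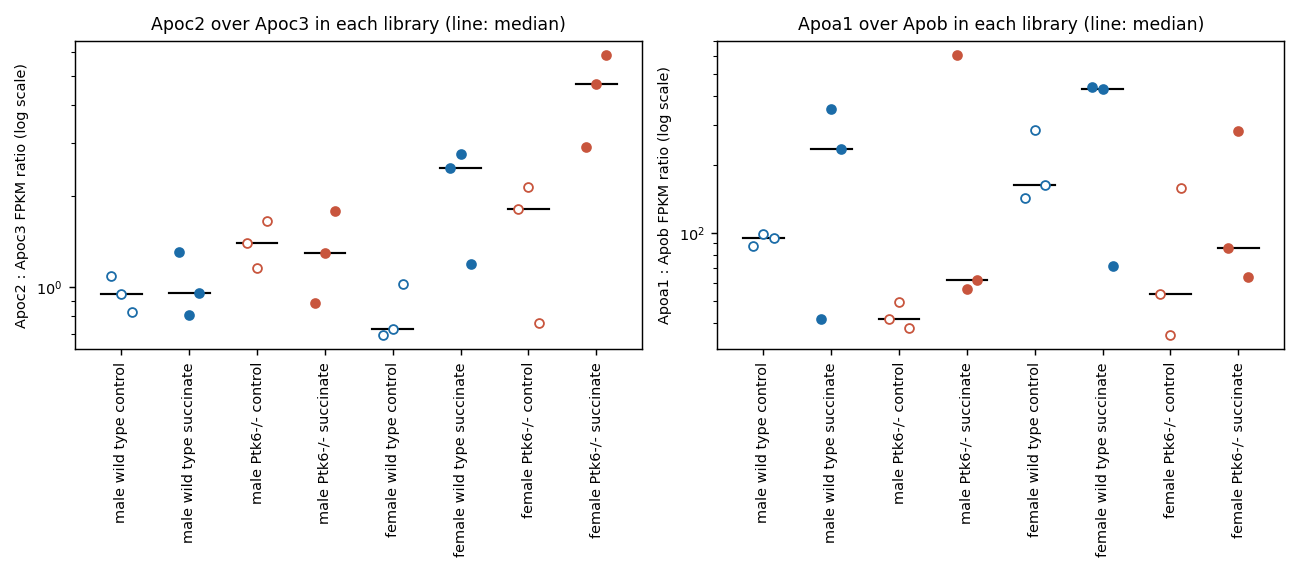
FPKM ratio (log axis) of Apoc2 to Apoc3, left, and of Apoa1 to Apob, right, in each library by group, with a line at the median of each group of 3. The ratio on the left is highest in succinate-treated Ptk6-/- females, at 2.90 to 5.88, and that on the right spans 35.5 to 609.

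Other genes of the pathway were read from lists of related genes, and few were called. Of 20 genes of lipid absorption, 0 were called in any comparison. They include Fabp2, the intestinal fatty acid-binding protein, with a median of 3052 FPKM (524 to 9258), and Dgat1, which makes triglyceride, with 173.6 (54.9 to 291). The average succinate effect on Fabp2 was -0.83 (SE 0.33, adjusted p = 0.237). Of 9 other genes with an apolipoprotein name, 8 were tested in the average effects and 1, Apoh, was called. Apoh, which encodes beta-2-glycoprotein, rose with succinate by an average of 1.56 (SE 0.36, adjusted p = 0.0391), from a low level of 0 to 4.12 FPKM. It was called in 5 of the 24 fits that left out 1 library and in 6 of 12 other alternatives. It was not called without the 3 libraries that stood apart, with a replicate block or on log2(FPKM + 1), where the average was 0.58. Apoe, the most abundant of this list, had a median of 145 FPKM and an average succinate effect of 0.41 (adjusted p = 0.416), and Apoa2 had a median of 0.797 FPKM.

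Of 19 genes of lipoprotein assembly and secretory transport, 1 was called. Sec24d, a cargo-binding subunit of the COPII coat, was higher in the male Ptk6-/- controls, at 14.6, 15.1 and 15.8 FPKM against 1.95, 7.83 and 9.40 in wild type. The log2 fold change was 1.03 (SE 0.23, adjusted p = 0.0464), and it was called in 0 of the 6 fits that left out 1 library and in 4 of 12 other alternatives. The length offset, the replicate block, voom and the FPKM fits left it uncalled. The most abundant genes of the list, Prap1 and P4hb (the protein disulfide isomerase that pairs with MTTP), had medians of 538 and 373 FPKM and were not called. Of 3 cofactors of Apob editing 0 were called. A1cf, the partner that helps APOBEC1 find its site, had a log2 fold change of 0.92 (SE 0.22, adjusted p = 0.0548) in the male controls, and Rbm47 had a median of 19.1 FPKM.

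Of 10 transcription regulators of apolipoprotein genes, 0 were called in any comparison. All 10 had an average succinate effect below 0, with a median of -0.39 beside -0.0025 for all genes. So had all 10 enterocyte markers, with a median of -0.51, and their part in the result was not tested. Hnf4a, a nuclear receptor of the epithelium with a median of 108 FPKM, had -0.48 (SE 0.19, adjusted p = 0.226), and Creb3l3, with 72.4 FPKM, had -0.06. Of 10 lipoprotein receptors and lipases, 1 was called. Angptl4, an inhibitor of lipoprotein lipase, was called lower with succinate, with an average log2 fold change of -1.13 (SE 0.26, adjusted p = 0.0402). It was at 17.5, 24.4 and 20.1 FPKM in female wild type controls and at 2.19, 4.05 and 9.16 with succinate, and in males of that genotype at 8.08, 10.4 and 7.19 against 7.26, 9.60 and 7.18. It was called in 6 of the 24 fits that left out 1 library and in 8 of 12 other alternatives. It was not called without the 3 libraries that stood apart, with a replicate block, on log2(FPKM + 0.1) or on unfiltered log2(FPKM + 1). The fat-mobilizing lipases Pnpla2 and Lipe, the most abundant of that list, had medians of 51.6 and 16.5 FPKM and were not called.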

How the data were processed

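Distal jejunum RNA of 24 mice was sequenced as stranded poly(A) libraries, 1 per mouse, so p-values measure the spread between mice. Counts per gene, as deposited by the authors, were not normalized. FPKM values were deposited by the authors for the same libraries and were estimated with StringTie and ballgown after trimming with Cutadapt and mapping with HISAT2. The submitters' processing notes name FastQC, StringTie and GRCm39. Counting software, and whether it used strand, are not given in the sources used here, and Apoa4 and Mttp overlap antisense genes. Of the columns of per-sample values, 0 were left unmapped to a sample.

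Counts were tested in R 4.3.3 with edgeR 4.0.16 (quasi-likelihood test after TMM scaling, on genes that reached 10 counts in 3 or more libraries of the fit). Each of the 15 comparisons used the libraries of its groups, or all 24 with a mean per group for the average effects. Calls needed a Benjamini-Hochberg adjusted p under 0.05 and a fold change of at least 2. Alternatives were DESeq2 1.42.0 and its size factors, no filter, no fold threshold, voom (limma 3.58.1) with quality weights per sample, FPKM fits in limma with a pseudocount of 1 or 0.1 on the log2 scale at a mean of at least 0.5 FPKM or unfiltered, a gene length offset, the replicate number as a block, all 24 libraries in 1 fit and each library left out. Leaving out the 3 libraries that stood apart, and summing Apoc2 with Apoc2l, were added after the data were seen. Gene length for the slope came from the ratio of counts to FPKM, over expressed genes. The test was checked on simulated data.

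The members, the related lists (lipid absorption, other apolipoprotein genes, assembly and transport, editing cofactors, transcription regulators, receptors and lipases) and the marker lists were chosen with earlier results of these data known. Genes were named by rule: the members, every related gene called in a comparison of 2 groups or an average effect, otherwise the 2 most abundant of each list, and the 3 genes most correlated with each member.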

Additional observations from a re-analysis of the deposited data

How the results depend on the processing

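Of 2903 values of single members under alternatives, 2629 kept their direction and their side of the threshold, 13 became calls and 261 changed sign without being called on either side. As the main fits called 0 members, there was no call that could weaken or reverse. Dropping the fold threshold, with 120 of the values, could change none of them, since no member had an adjusted p under 0.05 in the main edgeR fits. The count of members called, 0 in each of the 15 comparisons, was the same in 354 of 361 alternatives. It was 3 in female controls with voom (0 to 3 when 1 library was left out), 2 for genotype in succinate-treated males with voom, 1 for genotype in succinate-treated females with DESeq2 and 2 for the average genotype effect with voom. When 1 library was left out it was 0 to 1 for succinate in wild type males and 0 to 1 in wild type females. The cause was not tested.

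Sign changes were most frequent in the limma fits of FPKM (32 or 33 of 120 values each), where the median log2 fold change of all genes moved to between -1.10 and 1.29. For genotype in succinate-treated males, all members but Apoc2 and Sar1b changed sign on log2(FPKM + 1). Counts over all genes depended on the tool. Genotype in male controls gave 142 calls, with 0 to 577 in other fits, 62 with the gene length offset and 2 (without Ptk6-/- replicate 3) to 211 when 1 library was left out. The average succinate effect gave 158, with 43 to 798 in other fits, the average sex effect 78, with 28 to 324, and the average genotype effect 4, with 1 to 1539. Succinate in Ptk6-/- females gave 17, with 0 to 424.

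With the replicate number as a block, 0 members were called, and 5 genes for genotype in male controls, 0 in female controls, 0 for succinate in Ptk6-/- females, 4 for succinate in wild type females and 113 for the average succinate effect. Same-numbered libraries did not deviate together: their correlations were -0.356 to 0.234, 2 of 24 were over 0.1, and 2 libraries matched their own number best. Depth limits Apobec1 and Sar1b in the shallowest library, and 3 mice per group limit all comparisons.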

Other observations

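The range of the FPKM ratio between 2 members, over the 24 libraries, differed by pair, and all pairs were looked at after the values were seen. The most even ratios were those of Apoa4 to Apoc2, which spanned 3.02-fold (7.02 to 21.2), of Sar1b to Apobec1, which spanned 3.65-fold (3.27 to 11.9), and of Apoa1 to Apoc3, which spanned 3.65-fold (62.8 to 229). The ratio of Apoc3 to Apobec1 spanned 66.2-fold, from 2.57 in succinate-treated female Ptk6-/- replicate 3 to 170 in succinate-treated male Ptk6-/- replicate 1. That of Apoa4 to Apoa1, the 2 most abundant members, spanned 7.46-fold, from 0.0849 in female Ptk6-/- control replicate 3 to 0.633 in succinate-treated female Ptk6-/- replicate 3.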
